A study of Mus musculus with 19 samples.

Results

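RNA-seq counts are described here for 9 transcription factor genes of the myeloid lineages: *Spi1*, *Cebpa*, *Cebpb*, *Cebpe*, *Gfi1*, *Irf8*, *Klf4*, *Id2* and *Runx3*. They were chosen by name, for known roles in myeloid fate and with earlier results of these data known, out of 54352 genes listed, and each of the 9 was counted in all 19 libraries. The libraries came from mouse bone marrow cells carrying an shRNA against the long noncoding RNA *Spehd* (sh10 or sh20) or a control shRNA against *Renilla* luciferase, which has no target in mouse cells. Both of 2 populations were sorted in each arm, LSK cells (Lin- Sca1+ cKit+, the fraction with stem cells and multipotent progenitors, labelled KLS) and common myeloid progenitors (CMP, from Lin- Sca1- cKit+ cells). The groups were CMP sh10 (n = 3 libraries), CMP sh20 (n = 2), CMP *Renilla* (n = 4), LSK sh10 (n = 3), LSK sh20 (n = 3) and LSK *Renilla* (n = 4), and libraries are named by group and replicate letter.

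What the groups shared limits them as a model. Every library came from a transplant: stem cells of C57BL6 donors were transduced with a vector that makes the shRNA and the green protein zsGreen only under doxycycline, and were given to sub-lethally irradiated C57BL/6-CD45.1; cKit-w41 mice of both sexes, aged 9 to 12 weeks, with no competitor cells. After 10 weeks all recipients, controls included, ate doxycycline food for 6 days, and per the labels, cells were sorted on zsGreen, which marks an active vector, as well as on surface markers. The labels do not say whether replicate letters are separate animals or tie libraries of different groups together, so the p-values measure only the spread between these libraries, which may be technical. The sh10 and sh20 comparisons used the same *Renilla* libraries.

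Granulocytes, monocytes, red cells and platelets branch from progenitors in which transcription factors cooperate and oppose each other. PU.1, the product of *Spi1*, and C/EBPα, the product of *Cebpa*, open the myeloid programme. GFI1 and C/EBPε then favour granulocytes, IRF8 and KLF4 favour monocytes and, for IRF8, dendritic cells, and C/EBPβ drives granulocyte output when demand rises. ID2 blocks E-protein transcription factors and RUNX3 acts beside other RUNX proteins, and both are best known from natural killer, innate lymphoid and T cells although myeloid cells use them too.

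The guide strands of both *Spehd* shRNAs are shown because the comparisons rest on them. They are 22 bases long, taken from the study's oligonucleotide list, written 5′ to 3′ with the seed, bases 2 to 8 counted from the 5′ end, in capitals.
sh10: tACAAAGTcagcttttcctctc
sh20: tATGCTATgacaacccagggca
The complement of the sh10 seed, ACTTTGT, was found in annotated transcripts of *Irf8* (1 site) and of no other gene of the 9, beside 27.8% of 21877 protein-coding genes. The complement of the sh20 seed, ATAGCAT, was found in *Spi1* (1 site) and in no other gene of the 9, beside 12.8% of protein-coding genes. A match of letters is a description of the sequence and not a measured effect of the guide.

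Libraries held 3647318 to 5965155 counts on genes (median 4918631) and detected 17174 to 20678 genes. Levels are given as CPM, the count scaled to a common library total after correction of that total by the TMM factor of edgeR, and counts are printed where they are small. In CMP the *Spehd* libraries were all deeper (4918631 to 5965155 counts) than the *Renilla* libraries (3857980 to 4314959), so depth and shRNA cannot be told apart there. No counted gene was named *Spehd*, so the knockdown itself was not analysed here. *Ly6a*, which encodes the Sca1 of the gate, had means of 50.9 to 66.2 CPM in the LSK groups and 3.04 to 5.70 CPM in the CMP groups, the order that the labels give. *Fcgr3*, one of the FcγR genes stained for the gate, had means of 47.6 to 67.5 CPM in LSK and 9.44 to 23.8 CPM in CMP. *Cd34* had means of 442 to 500 CPM in LSK and 187 to 342 CPM in CMP. With *Fcgr3*, *Cebpa* and *Gfi1* lower in the CMP libraries than in LSK, and markers of T, NK and innate lymphoid cells high in CMP *Renilla*, RNA levels do not settle whether the sorted cells match a usual CMP gate, and CMP here means the libraries so labelled. LSK sh10 B stood apart from LSK sh10 A and C, with chi-square values per degree of freedom of 37.7 and 45.2, where the pair A and C gave 5.24. The pair of CMP sh20 libraries gave 27.8, those of LSK sh20 13.9 to 18.3 and all other pairs of replicates 4.32 to 8.07. Calls that are lost without LSK sh10 B are named beside their values.

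Levels between genes were compared per length, as mean CPM per kilobase of exons. In LSK *Renilla* the order was *Spi1* (67.4), *Cebpb* (51.3), *Irf8* (28.3), *Runx3* (25.6), *Id2* (20.4), *Gfi1* (18), *Cebpa* (14.7), *Cebpe* (9.66) and *Klf4* (0.387). In CMP *Renilla* it was *Spi1* (43.3), *Id2* (32.9), *Cebpb* (31.9), *Runx3* (24.2), *Irf8* (11.8), *Cebpa* (5.21), *Gfi1* (3.55), *Cebpe* (0.481) and *Klf4* (0.211). *Spi1* thus led in both control groups, and the granulocyte factors *Cebpa*, *Gfi1* and *Cebpe* stood above only *Klf4* in both. In CMP sh10 *Irf8* (43.2) and *Spi1* (42.9) had nearly the same level per kilobase. *Klf4* had 0 to 17 counts in every library, so each value given for it rests on few reads.

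**Figure D1:**
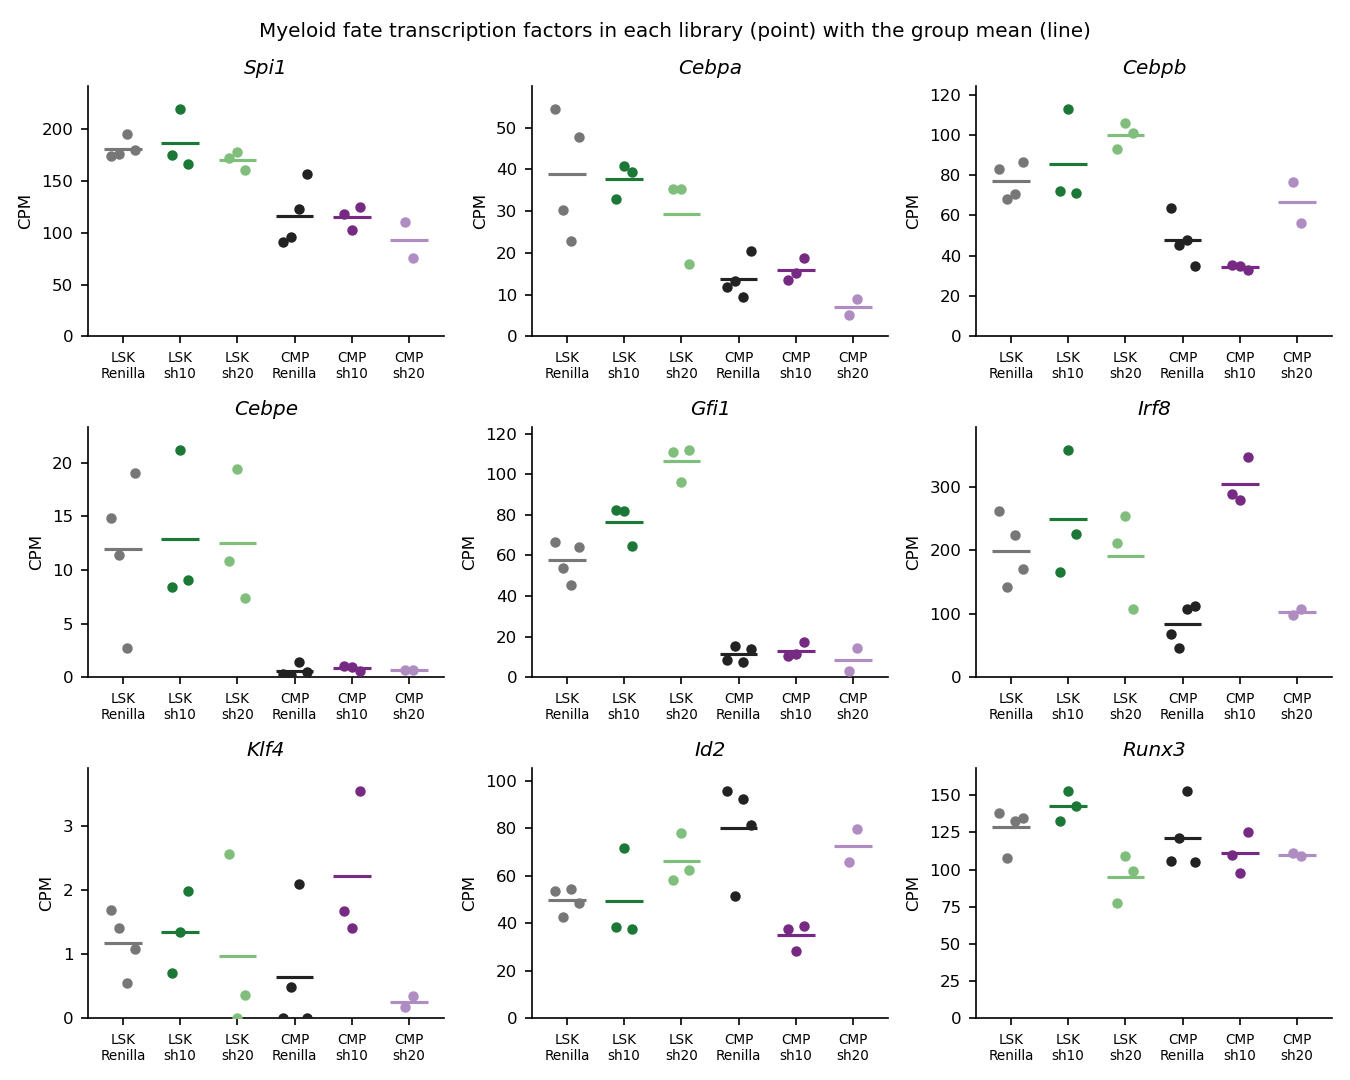
Each panel plots 1 gene, with CPM on the vertical axis, the 6 groups on the horizontal axis, 1 point per library and a line at each group's mean. *Spi1*, *Cebpe* and *Gfi1* lie lower in every CMP library than in every LSK library, and *Irf8* in CMP sh10 (279 to 346 CPM) lies above the other CMP groups.

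The first comparison asked how the 9 genes differ between CMP and LSK under the same shRNA. In the *Renilla* libraries 6 genes were lower in CMP (*Spi1*, *Cebpa*, *Cebpb*, *Cebpe*, *Gfi1* and *Irf8*), 1 was higher (*Id2*), and *Klf4* and *Runx3* did not pass the test, a quasi-likelihood test in edgeR whose p-values were adjusted by Benjamini and Hochberg's method across every gene tested, with 0.05 as the limit. Of 15066 genes tested, 8.73% were lower and 11% were higher. Of the 9, *Cebpe* could pass the filter on low counts only through LSK, where it is high. In bulk libraries fewer cells of a type and less RNA per cell cannot be told apart.

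*Gfi1*, the repressor that restrains monocyte genes during granulocyte formation, had 66.8, 53.6, 45.6 and 64.1 CPM in LSK *Renilla* A, B, C and D. In CMP *Renilla* A, B, C and D it had 8.69, 15.4, 7.42 and 13.7 CPM. All CMP values lay below all LSK values under each of the 3 shRNAs. The log2 fold change was -2.35 (SE 0.34, adjusted p = 0.000164) with *Renilla*, -2.54 (SE 0.39, adjusted p = 0.000273) with sh10 and -3.62 (SE 0.48, adjusted p = 0.000103) with sh20.

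*Cebpe*, which encodes the factor needed for the late granule programme of neutrophils, had 1, 1, 6 and 2 counts in CMP *Renilla* A, B, C and D. LSK *Renilla* A, B and D had 70, 57 and 88 counts, while LSK *Renilla* C had 10. No CMP library reached the lowest LSK library under any shRNA. Its log2 fold change was -4.25 (SE 0.65, adjusted p = 0.000258) with *Renilla*, -3.81 (SE 0.71, adjusted p = 0.00136) with sh10 and -4.13 (SE 0.85, adjusted p = 0.00357) with sh20. These values set LSK against CMP libraries of 1 to 6 counts, so their size depends on the prior count, and *Cebpe* was left out when 10 counts were required in every library. The 10 markers of mature neutrophils summed to 7.18, 359, 15.8 and 197 CPM in LSK *Renilla* A, B, C and D and to 11.6 to 23.2 CPM in CMP *Renilla*, and their part in the *Cebpe* values was not tested. In LSK sh20 that sum was 7.10 to 17.2 CPM, while *Cebpe* had 55, 90 and 40 counts. In LSK sh10 A, B and C the sum was 73.1, 333 and 103 CPM and *Cebpe* had 48, 111 and 50 counts, with B highest in both.

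*Cebpa*, the factor that commits progenitors to granulocytes and monocytes, had 54.5, 30.3, 22.9 and 47.7 CPM in LSK *Renilla* A, B, C and D. In CMP *Renilla* it had 11.8, 13.2, 9.51 and 20.4 CPM, below all 4 LSK values. On the log2 scale it changed by -1.50 (SE 0.32, adjusted p = 0.00328) with *Renilla*, -1.26 (adjusted p = 0.0241) with sh10 and -2.06 (adjusted p = 0.00464) with sh20. The sh10 call was lost without CMP sh10 A (adjusted p = 0.0947), CMP sh10 B (0.0881), LSK sh10 B (0.0529) or LSK sh10 C (0.0505), and the sh20 call without CMP sh20 B (0.0633).

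*Spi1* had 174, 176, 196 and 180 CPM in LSK *Renilla* A, B, C and D and 91.1, 95.8, 123 and 157 CPM in CMP *Renilla* A, B, C and D. The CMP values were below the LSK values under all 3 shRNAs. The log2 fold change was -0.64 (SE 0.16, adjusted p = 0.00865) with *Renilla*, -0.69 (adjusted p = 0.0138) with sh10 and -0.87 (adjusted p = 0.00941) with sh20. Without LSK sh10 B, whose 220 CPM was the highest value of *Spi1*, the sh10 change was -0.54 (adjusted p = 0.0598), without CMP sh10 B it was -0.63 (adjusted p = 0.0827), and without CMP sh20 C the sh20 change was -0.62 (adjusted p = 0.0925).

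*Cebpb* had 83.3, 68.1, 70.6 and 86.6 CPM in LSK *Renilla* A, B, C and D and 63.7, 45.1, 48.0 and 34.9 CPM in CMP *Renilla* A, B, C and D, again without overlap. Between CMP and LSK it changed by a log2 fold of -0.69 (SE 0.18, adjusted p = 0.0142) with *Renilla* and -1.31 (adjusted p = 0.000508) with sh10. With sh20 it was -0.58 with an adjusted p of 0.109, past no threshold although both CMP values lay below all 3 LSK values. The *Renilla* call was lost without CMP *Renilla* B (adjusted p = 0.0571) or LSK *Renilla* D (0.0636).

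*Irf8* and *Id2* passed with *Renilla* and with neither *Spehd* shRNA. *Irf8*, which steers progenitors to monocytes and dendritic cells, had 261, 142, 224 and 171 CPM in LSK *Renilla* A, B, C and D and 68.2, 46.8, 107 and 112 CPM in CMP *Renilla*. The groups did not overlap, and the log2 fold change was -1.25 (SE 0.30, adjusted p = 0.00794). With sh10 the CMP values (289, 279 and 346 CPM) and the LSK values (165, 358 and 226 CPM) overlapped, and the log2 difference was 0.29 with a 95% interval of -0.43 to 1 (adjusted p = 0.62). With sh20 the difference was -0.89 (interval -1.72 to -0.06, adjusted p = 0.139, and 0.000274 without a filter on low counts). *Id2* was higher in CMP than in LSK with *Renilla* by 0.69 (SE 0.22, adjusted p = 0.0372), with 51.4 to 95.8 CPM against 42.6 to 54.6 CPM, and these ranges overlapped. With sh10 its difference was -0.49 (adjusted p = 0.215) and with sh20 0.14 (adjusted p = 0.801). The *Id2* call with *Renilla* was lost without any single one of CMP *Renilla* A, C or D or of LSK *Renilla* A to D (adjusted p = 0.0619 to 0.115), with upper quartile scaling (0.072) and with depth as a covariate (0.118).

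With sh10, 5 of the 9 genes were lower in CMP and none was higher, beside 8.58% lower and 7.51% higher of all genes tested, and the count was 3 to 5 when single libraries were left out. Without LSK sh10 B the log2 differences of the 3 genes that still passed were -1.03 (*Cebpb*), -3.22 (*Cebpe*) and -2.46 (*Gfi1*). With sh20, 4 were lower and none was higher, beside 8.64% and 5.94%. These counts include *Cebpe*, which could pass the filter on low counts only through LSK. The other genes lower in CMP were *Spi1*, *Cebpa*, *Cebpb* and *Gfi1* with sh10, and *Spi1*, *Cebpa* and *Gfi1* with sh20. *Runx3* did not pass with any shRNA, with log2 differences of -0.08 (*Renilla*), -0.37 (sh10, adjusted p = 0.127) and 0.21 (sh20). Its values were 97.5 to 125 CPM in CMP sh10 and 133 to 153 CPM in LSK sh10, without overlap.

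**Figure D2:**
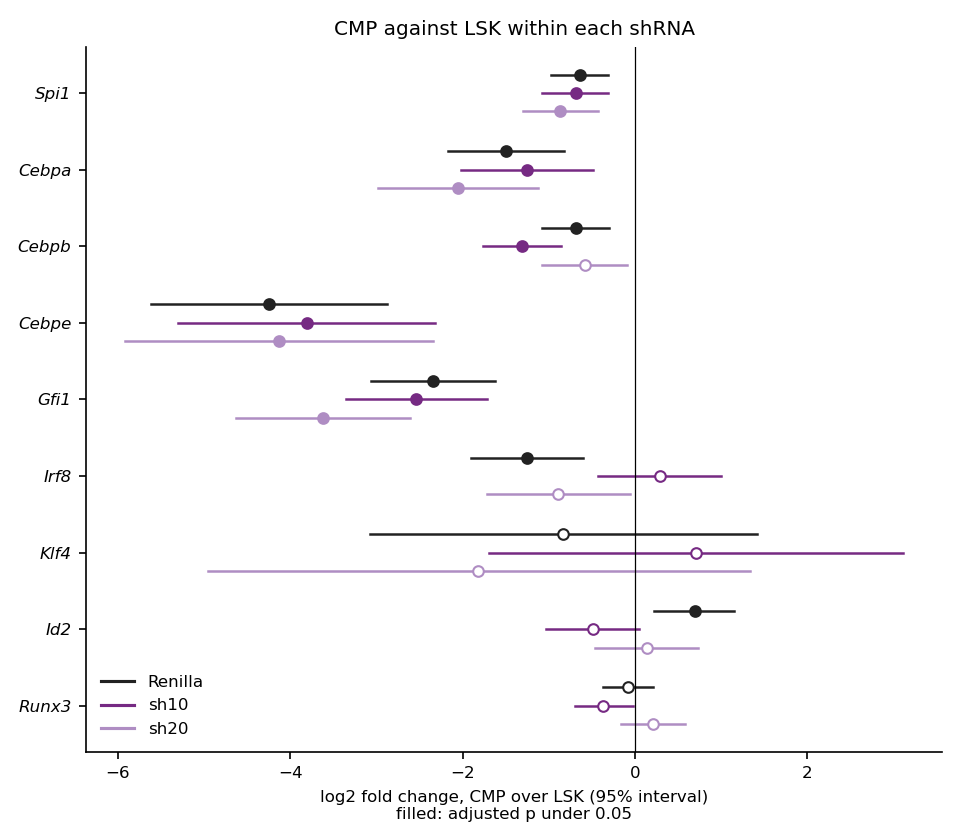
The log2 fold change of CMP against LSK is plotted for each of the 9 genes and each shRNA, with 95% intervals from edgeR and a line at 0. *Gfi1*, *Cebpe*, *Cebpa* and *Spi1* lie below 0 with every shRNA, while *Irf8* lies below 0 with *Renilla* (-1.25) and spans 0 with sh10 (0.29).

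The start regions of 2 genes are shown, *Gfi1*, which had the smallest adjusted p of the 9 between CMP and LSK, and *Irf8*, which passed between CMP and LSK with *Renilla* and not with sh10 or sh20. They are RefSeq windows of 300 bases (GRCm38.p6), from 250 before to 50 after the first listed start, and 7 of the 9 genes had such a window. *Gfi1* (gene at chr5:107716657-107726036, minus strand) has the window chr5:107725756-107726055 on the minus strand, with its match to TTNNGNAA, the spaced half-sites bound by C/EBP proteins, in capitals. That match reads on the strand opposite to the printed one. *Irf8* (gene at chr8:120736358-120756694, plus strand) has the window chr8:120736108-120736407 on the plus strand, with its matches to TTCNNNGAA, the site form bound by STAT proteins, in capitals.
Gfi1: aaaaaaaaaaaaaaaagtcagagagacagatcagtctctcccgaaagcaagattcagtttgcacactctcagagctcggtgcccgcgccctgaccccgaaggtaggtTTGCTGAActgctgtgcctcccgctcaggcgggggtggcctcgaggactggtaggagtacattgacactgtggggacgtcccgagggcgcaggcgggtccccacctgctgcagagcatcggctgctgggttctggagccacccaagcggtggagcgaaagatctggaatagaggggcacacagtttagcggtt
Irf8: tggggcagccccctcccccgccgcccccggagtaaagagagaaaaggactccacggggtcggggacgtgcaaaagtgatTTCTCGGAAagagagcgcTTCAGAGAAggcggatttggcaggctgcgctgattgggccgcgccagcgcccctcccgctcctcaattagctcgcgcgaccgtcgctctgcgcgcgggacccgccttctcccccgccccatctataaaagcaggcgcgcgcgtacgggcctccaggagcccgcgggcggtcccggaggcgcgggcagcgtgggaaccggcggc
Of the 5 motifs searched on both strands, TTNNGNAA lies in 40.7% of 32851 windows of this length, TTCNNNGAA in 8.3%, GAGGAA (the core bound by PU.1) in 28.3%, AGATAA (bound by GATA factors) in 11.2% and GAAANNGAA (an IRF form) in 8.56%. The *Gfi1* window held 1 match to the first and the *Irf8* window 2 matches to the second, and the windows of the other 5 genes held none of the 5 motifs. A match is letters in a window, and binding was not measured here.

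The next comparisons asked how the 9 genes differed in CMP after *Spehd* knockdown. In sh10 against *Renilla*, *Irf8* rose and *Id2* fell, and the other 6 genes tested did not pass. Of 13824 genes tested, 0.977% were higher and 0.991% were lower. In sh20 against *Renilla* none of the 8 genes tested passed, beside 1.9% higher and 4.27% lower, and in edgeR 1 of the 8, *Cebpa*, lay under an unadjusted p of 0.05, at 0.0363, beside 3395 of 13824 genes. DESeq2 called *Irf8* and *Id2* with sh10 and none of the 9 with sh20. With both shRNAs as 1 group of 5 libraries, none of the 7 genes tested passed in edgeR, beside 0.0387% higher and 0.0774% lower of 12912 genes, and *Irf8* had 1.41 (95% interval 0.49 to 2.34, unadjusted p = 0.00664, adjusted p = 0.126). DESeq2 called *Irf8* in that pooled comparison (1.43, adjusted p = 0.0339).

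*Irf8* had 289, 279 and 346 CPM in CMP sh10 A, B and C. It had 97.8 and 107 CPM in CMP sh20 B and C. In CMP *Renilla* A, B, C and D it had 68.2, 46.8, 107 and 112 CPM. All 3 sh10 libraries lay above all other CMP libraries, while the sh20 values fell inside the range of *Renilla*. The fold in sh10 against *Renilla* was 3.63, a log2 change of 1.86 (SE 0.25, 95% interval 1.30 to 2.42, adjusted p = 0.0158), and in sh20 against *Renilla* 0.31 (interval -0.34 to 0.95, adjusted p = 0.556). The sh10 change was 1.66 to 2.04 with single libraries left out, and the adjusted p was 0.0657, 0.0714 and 0.0676 without CMP sh10 A, B and C and 0.0592 without CMP *Renilla* A. With the log2 total counts as a covariate the change was 1.64 with an adjusted p of 0.989.

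*Id2* had 37.7, 28.5 and 38.9 CPM in CMP sh10 A, B and C. It had 65.7 and 79.5 CPM in CMP sh20 B and C, and 95.8, 51.4, 92.3 and 81.2 CPM in CMP *Renilla* A, B, C and D. The sh10 libraries were below all 6 others, and sh20 lay within the *Renilla* range. The log2 change was -1.20 (SE 0.23, interval -1.71 to -0.69, adjusted p = 0.0374) with sh10 and -0.13 (interval -0.69 to 0.43, adjusted p = 0.797) with sh20. The sh10 call was lost without any single library of these groups except CMP *Renilla* B (adjusted p = 0.0762 to 0.171), and with depth as a covariate the change was -0.48 (adjusted p = 0.989).

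*Id2* is high in natural killer and innate lymphoid cells, so their markers were read beside it. The 14 markers of T, NK and innate lymphoid cells summed to 785, 522, 539 and 511 CPM in CMP *Renilla* A, B, C and D. They summed to 199, 172 and 211 CPM in CMP sh10 and to 373 and 313 CPM in CMP sh20. The order of the group means was the same as that of *Id2*, with sh10 lowest and *Renilla* highest. In sh10 against *Renilla* 8 of the 14 fell and none rose, with a median log2 change of -2.77 beside -0.01 over all genes. *Klrb1c* (NK1.1) had -3.41, *Ncr1* (NKp46) -3.01 and *Klrd1* (CD94) -2.78. The defining T cell gene *Cd3e* had 35 to 67 counts in CMP *Renilla*, 0 to 5 in CMP sh10 and 68 to 199 in CMP sh20. The part of such cells in the *Id2* and *Irf8* values was not tested. The LSK libraries had sums of 209 to 373 CPM.

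None of the remaining genes passed against *Renilla* in CMP. *Cebpb* had 35.5, 35.0 and 32.8 CPM in CMP sh10, 76.8 and 56.5 CPM in CMP sh20 and 34.9 to 63.7 CPM in CMP *Renilla*. Its log2 difference was -0.48 with sh10 (adjusted p = 0.229) and 0.49 with sh20 (adjusted p = 0.221), of opposite sign and neither past the threshold. *Cebpa* had 13.5, 15.1 and 18.8 CPM in CMP sh10, 9.51 to 20.4 CPM in CMP *Renilla* and 5.08 and 8.96 CPM in CMP sh20, where both values were below all other CMP libraries. Its difference with sh20 was -0.95 (interval -1.83 to -0.07, adjusted p = 0.171) and with sh10 0.20. *Gfi1* differed widely within CMP sh20, at 2.88 CPM in B and 14.4 CPM in C, and its sh20 difference of -0.37 (adjusted p = 0.742) became -1.94 without CMP sh20 C, on the single sh20 library left (adjusted p = 0.0342, with 3191 of 14594 genes called), and 0.36 without CMP sh20 B. *Spi1* (-0.02 with sh10, -0.31 with sh20) and *Runx3* (-0.13 with each) had adjusted p-values of 0.454 to 0.977, with sh10 intervals of -0.47 to 0.44 and -0.46 to 0.20. *Klf4* had 8, 7 and 17 counts in CMP sh10 against 0, 2, 9 and 0 in CMP *Renilla* (adjusted p = 0.421), and *Cebpe*, at 1 to 6 counts in all CMP libraries, did not pass the filter on low counts.

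**Figure D3:**
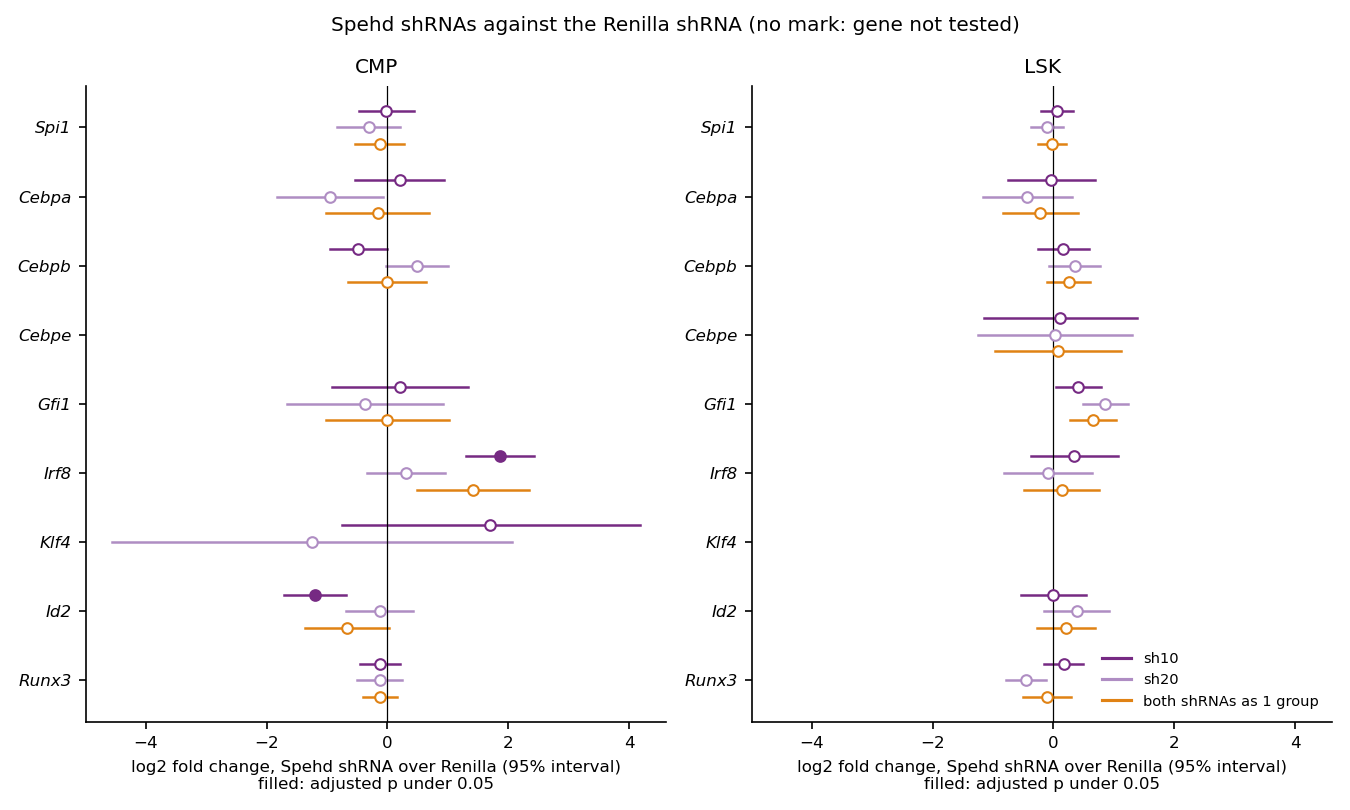
The log2 fold change of sh10, of sh20 and of both as 1 group against *Renilla* is plotted for each gene in CMP and in LSK, with 95% intervals from edgeR, filled marks for adjusted p under 0.05 and no mark for a gene not tested. *Irf8* (1.86) and *Id2* (-1.20) lie away from 0 in CMP sh10, and the intervals of sh20 in CMP are shifted toward 0 for both genes (0.31 and -0.13).

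Since both guides aim at the same RNA, they were compared with each other in CMP. In sh20 against sh10, *Irf8* was lower by a log2 difference of -1.55 (SE 0.31, adjusted p = 0.0256), *Id2* was higher by 1.07 (SE 0.26, adjusted p = 0.0445) and *Cebpb* was higher by 0.97 (SE 0.24, adjusted p = 0.0468). For each of these 3 genes both sh20 libraries lay outside the range of the 3 sh10 libraries. The same held for *Cebpa* and *Klf4*, which did not pass, and the share of all genes so separated is not given here. In the same comparison 5 of 14 T, NK and innate lymphoid genes (median 1.43), 3 of 11 immediate early genes, 1 of 8 stem cell genes and 1 of 4 mature neutrophil genes were higher and none lower. Lower were 1 of 9 early granulocyte genes (median -0.29), 1 of 5 mast cell and basophil genes and 1 of 6 gate genes, with none higher. Of 25 other granulocyte and monocyte regulators 4 were higher and 1 lower. The part of these lists was not tested. The 8 B cell markers summed to 72.7 and 290 CPM in CMP sh20, 25.5 to 40.7 CPM in CMP sh10 and 29.5 to 66.5 CPM in CMP *Renilla*, and neither of the 2 tested passed. Of all genes 2.77% were higher and 3.64% were lower. *Cebpa* (-1.15, adjusted p = 0.113) did not pass, and *Klf4* (-2.95, adjusted p = 0.243) rested on 1 and 2 counts in sh20. All 3 calls were lost without any single one of the sh10 libraries (adjusted p = 0.0766 to 0.134), that of *Cebpb* also without CMP sh20 B (0.73, adjusted p = 0.136) and that of *Id2* without CMP sh20 C (0.93, adjusted p = 0.0532). With depth as a covariate the adjusted p of the 3 genes was 0.352 to 0.518. All sh20 libraries there were deeper (5680969 to 5965155 counts) than the sh10 libraries (4918631 to 5228700), so that fit cannot tell depth from shRNA. Without CMP sh20 C, on 1 sh20 library that is assumed to vary like the other groups, *Cebpa* (-1.61, adjusted p = 0.0358) and *Gfi1* (-2.16, adjusted p = 0.023) passed, in a fit that called 3484 of 14594 genes beside 886 of 13824 with all libraries.

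In LSK none of the 8 genes tested, all but *Klf4*, passed in any of the 4 comparisons, and neither did any other gene, with 0% called in each by edgeR. The number of all genes with an unadjusted p under 0.05 was 492 for both shRNAs against *Renilla*, 457 for sh10, 1152 for sh20 and 1268 for sh20 against sh10, and DESeq2 called 0, 3, 195 and 256 genes. *Gfi1* had 111, 95.9 and 112 CPM in LSK sh20, 82.3, 81.7 and 64.7 CPM in LSK sh10 and 45.6 to 66.8 CPM in LSK *Renilla*. The LSK sh20 values lay above all other LSK libraries, with a log2 difference from *Renilla* of 0.86 (interval 0.49 to 1.23, unadjusted p = 0.000359, adjusted p = 0.181 in edgeR and 0.00111 in DESeq2). With sh10 the *Gfi1* difference was 0.41 (unadjusted p = 0.0331, adjusted p = 0.995), and with both shRNAs as 1 group 0.65 (unadjusted p = 0.00295, adjusted p = 0.998). *Runx3* had 77.7, 109 and 99.0 CPM in LSK sh20, 133, 153 and 143 CPM in LSK sh10 and 108 to 138 CPM in LSK *Renilla*. Its difference in sh20 against sh10 was -0.62 (interval -0.97 to -0.26, adjusted p = 0.223 in edgeR and 0.0388 in DESeq2). *Irf8* and *Id2* in LSK sh10, the groups matched to the CMP calls, differed from *Renilla* by 0.34 (interval -0.38 to 1.06) and 0.00 (interval -0.54 to 0.54), and by -0.03 and -0.40 without LSK sh10 B.

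The difference between the knockdown effect in CMP and that in LSK was then tested itself. None of the 9 genes passed, beside 0% higher and 0.0531% lower of 15066 genes. For *Irf8* the difference was 0.95 (interval 0.12 to 1.78, unadjusted p = 0.0278, adjusted p = 0.445), and for *Id2* it was -0.86 (interval -1.48 to -0.25, unadjusted p = 0.00888, adjusted p = 0.368). With sh10 alone, a split added after the data were seen, the differences were 1.54 (interval 0.58 to 2.50, adjusted p = 0.538) and -1.18 (interval -1.89 to -0.46, adjusted p = 0.538). The sh10 changes of *Irf8* and *Id2* in CMP are thus not shown by this test to differ from those in LSK. Without CMP sh20 C, which leaves 1 CMP sh20 library, the difference of *Gfi1* was -1.52, and with all libraries it was -0.73 (adjusted p = 0.563).

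Other regulators and targets of the same lineages were read from lists. Of 26 other granulocyte and monocyte regulators tested in CMP against LSK with *Renilla*, 8 were lower and 3 higher (median -0.41, all genes -0.02), with *Runx2* at -1.41, *Nab2*, a partner of EGR factors, at -0.82 and *Klf2* at 1.65. Of 9 early granulocyte genes, many of them targets of C/EBP factors, 8 were lower and none higher (median -1.57), such as *Hp* (-2.79), *Ms4a3* (-2.36) and *Elane* (-2.06). Of 12 monocyte genes 3 were lower and none higher, such as *F13a1* (-2.90) and *Ly6c2* (-2.24). Of 11 erythroid and megakaryocyte transcription factors, among them the PU.1 opponent *Gata1*, 5 were higher and 1 lower, with *Klf1* at 3.03, *Gata1* at 2.07 and *Lyl1* at -0.91. Markers of other cells moved with this comparison as well: with *Renilla* 5 of 8 red cell genes were higher, 5 of 5 mast cell and basophil genes and 7 of 10 mature neutrophil genes were lower, and 7 of 14 T, NK and innate lymphoid genes were higher. Their part in the values of the 9 genes was not tested. For the last list, 1 of 14 was lower and none higher with sh10, and 2 were lower and 3 higher with sh20. Of 8 stem cell genes 6 were lower with *Renilla*, 7 with sh10 and 5 with sh20, and 1 was higher with sh10 alone. Of 12 immediate early genes 2 were higher and none lower with *Renilla*. With sh10 4 of them were lower and none higher, and with sh20 3 were lower and 1 higher. The part of these lists was not tested either.

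In CMP sh10 against *Renilla*, 1 of 12 monocyte genes was higher and none lower (median -0.10, all genes -0.01), *F13a1* at 3.21 (adjusted p = 0.035). Of 8 dendritic cell genes 1 was lower and none higher (median -0.44). The stem cell genes, of which 1 of 8 was lower and none higher, summed to 447 to 577 CPM in CMP sh10 and to 745 to 937 CPM in CMP *Renilla*, without overlap. No early granulocyte gene of 9 passed (median 0.35), and their summed level was 755 to 951 CPM in CMP sh10, 616 and 631 CPM in CMP sh20 and 542 to 795 CPM in CMP *Renilla*. Of 25 other regulators 2 were lower, among them *Klf2* (-2.04), and of 11 erythroid and megakaryocyte factors 2 were lower, *Nfe2* (-0.29) and *Lmo2* (-0.24). Of 11 immediate early genes, which respond fast to signals, 3 were lower, such as *Jun* (-1.89) and *Dusp1* (-1.55). In sh20 against *Renilla*, 1 of 12 monocyte genes was higher and none lower (median 0.99), *Cx3cr1* at 3.11. The monocyte sum was 898 CPM in CMP sh20 B and 447 CPM in C, beside 341 to 634 CPM in CMP *Renilla*. Of 9 early granulocyte genes 1 was lower and none higher (median 0.08), *Csf3r*, the G-CSF receptor, at -1.59. Of 11 erythroid and megakaryocyte factors 4 were lower and none higher. Of the other lists there, 3 of 11 immediate early genes and 2 of 14 T, NK and innate lymphoid genes (median -1.28) were lower and none higher, and of 8 red cell genes 2 were lower and 1 higher. Lower as well were 1 of 8 dendritic cell genes, 1 of 5 mast cell and basophil genes and 1 of 6 gate genes, with none higher. Of 25 other regulators 1 was higher and 1 lower. In sh10 against *Renilla*, 1 of 5 mast cell and basophil genes was higher and none lower (median 0.36), and 1 of 4 mature neutrophil genes was lower and none higher. The lists that moved with *Irf8* and *Id2* in sh10 thus included T, NK and innate lymphoid markers and immediate early genes, and their part in those values was not tested.

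**Figure D4:**
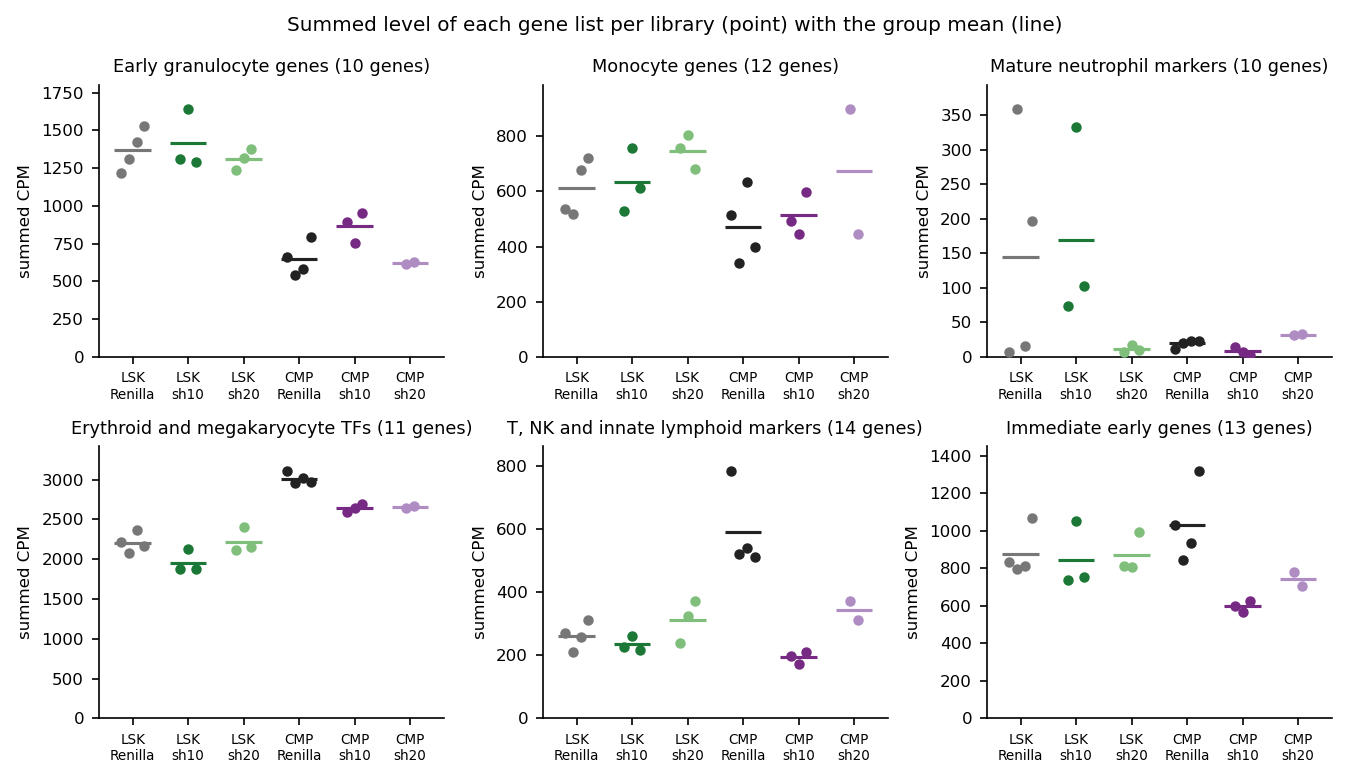
Summed CPM of marker and target lists is plotted for each library, on an axis of CPM with 1 point per library, a line at each group mean and the 6 groups side by side. The T, NK and innate lymphoid sum is 511 to 785 CPM in CMP *Renilla* and 172 to 211 CPM in CMP sh10, and the early granulocyte sum is higher in every LSK library than in every CMP library.

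Across all 19 libraries the genes with the pattern nearest to each factor were taken from 10483 other genes (10484 for *Cebpe* and *Klf4*) by Pearson's r of log2 CPM, a description in which the libraries share cell type, shRNA and depth. *Gfi1* was nearest to *Rcsd1* (0.951) and *Snx24* (0.950), *Cebpa* to *Rin3* (0.948) and *Arid5a* (0.930), and *Cebpe* to *Mcpt8*, a basophil protease (0.941), and *Csf2rb*, the receptor chain for GM-CSF and IL-3 (0.938). *Spi1* was nearest to *Cd27* (0.933) and *Ralgds* (0.931), and *Cebpb* to *Fcgr3* (0.927) and *Rab38* (0.919). For these 5 factors both neighbours had r of 0.919 or above. *Irf8* was nearest to *Rab7b* (0.850), whose mean was 2.75 CPM in CMP *Renilla*, 12.9 in CMP sh10, 4.19 in CMP sh20 and 23.6 in LSK *Renilla*, and to *Plxnb2* (0.817). *Id2* was nearest to *Pttg1ip* (0.911) and *Pdzk1ip1* (0.859), with means of *Pdzk1ip1* of 84.9, 44.9, 88.9 and 71.5 CPM in the same 4 groups. *Runx3* (*Particl* 0.756, *Capns1* 0.737) and *Klf4* (*Ints1* 0.804, *Zmiz1* 0.760) had the weakest neighbours. Between *Irf8* and *Id2* themselves r was -0.463.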

How the data were processed

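RNA was made into libraries with SMART-Seq v4, whose counting by strand is not stated, and sequenced on an Illumina HiSeq. Per the labels and the study's methods, the authors aligned reads with STAR to mm10, removed duplicates with Picard, and counted reads per gene with HTSeq-count on GENCODE vM11. The deposited values are raw counts, 1 table per library, with genes named by symbol. Rows that name no gene were left out: reads in no feature made up 26.4 to 32.2%, ambiguous reads 0.371 to 0.442% and reads with several alignments 39.6 to 50.9% of each table. Symbols were matched to GENCODE vM21 (53775 of 54352), used for positions and lengths.

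Counts were normalized by TMM and tested with edgeR 4.0.16 (R 4.3.3, limma 3.58.1) by the quasi-likelihood test, two-sided, after edgeR's filter (minimum count 10, minimum total 15), with Benjamini-Hochberg adjustment over all genes tested and a threshold of 0.05. Fold changes are log2 values of the edgeR fits with its default prior count, and log2 CPM had a prior count of 2. CPM is the count scaled to the library's total over genes that passed the filter, times its TMM factor. Comparisons of CMP with LSK and between their knockdown effects used all 19 libraries, the others the 9 CMP or 10 LSK libraries. Alternatives were DESeq2 1.42.0, its size factors in edgeR, upper quartile scaling, no filter, a stricter filter (10 counts or more per library), the replicate letter as a block, depth as a covariate, the shRNAs as separate groups and leaving out each library. The scripts were tested on simulated data. No replicate pair held identical values. In the lists, the called genes averaging 50 counts or more with the largest changes could be named, up to 3 per direction, and each factor got its 2 nearest genes. *Cd3e* was chosen after its values were seen. The members and lists were chosen with earlier results of these data known. Sequences came from the study's oligonucleotide list and RefSeq and were read with Python 3.11.15.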

Additional observations from a re-analysis of the deposited data

Results flagged for a closer look

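Among 32 groups of 4 to 10 libraries examined for a value far from the rest, in which chance gives about 1 in 20, 3 values stood out. *Spi1* in LSK sh10 B (220 CPM) was far above the other LSK libraries with a *Spehd* shRNA. *Cebpa* in LSK sh20 C (17.3 CPM) was far below the same libraries. *Runx3* in LSK *Renilla* B (108 CPM) was far below the other LSK *Renilla* libraries.

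For 3 genes the effects of the 2 guides in CMP, measured against shared *Renilla* libraries, differed by the test of the difference itself, edgeR's quasi-likelihood test of sh20 against sh10. The log2 difference was -1.55 for *Irf8* (adjusted p = 0.0256), 1.07 for *Id2* (adjusted p = 0.0445) and 0.97 for *Cebpb* (adjusted p = 0.0468). Of 13824 genes tested, 2.77% were higher and 3.64% were lower. All 3 calls were lost without any single sh10 library and with the replicate letter as a block.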

How the results depend on the processing

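The 21 called values of the 9 genes gave 279 values under alternatives, of which 228 stayed past the threshold, 51 did not and 0 had the other sign. The 78 values that were not called gave 1214, of which 74 had the other sign, all of them still uncalled, and 11 were now past the threshold. The causes were not tested. Fitting the replicate letter as a block left 0 of the 9 genes called in CMP for sh10 against *Renilla* and 0 for sh20 against sh10, and so did depth as a covariate (0 and 0). With the block the sh10 changes were 2.08 for *Irf8* (adjusted p = 0.0686) and -1.16 for *Id2* (0.12), and those of sh20 against sh10 -1.57 for *Irf8* (0.0611), 1.19 for *Id2* (0.0649) and 1.05 for *Cebpb* (0.0818). Over all genes the block left 5 and 28 called of 13824, and the covariate 0 and 0. The library totals of the CMP groups do not overlap, so the covariate fit cannot tell depth from shRNA. The letters were not taken to pair the libraries, since the labels do not say so: correlations of deviations were -0.0792 to 0.0444 over 16 pairs of the same letter and cell type, and -0.000694 to 0.21 (2 over 0.1) over 9 pairs of the same letter and shRNA in both cell types. The block also ended the *Id2* call in CMP against LSK with *Renilla* (0.65, adjusted p = 0.0746). DESeq2 called 1 gene with both shRNAs against *Renilla* in CMP (*Irf8*), 1 in LSK sh20 against *Renilla* (*Gfi1*) and 1 in LSK sh20 against sh10 (*Runx3*). With the shRNAs as separate groups the pooled CMP count was 1 (*Irf8*, with 674 of 13824 genes called), and without a filter it was 1 in LSK sh20 against *Renilla* (*Gfi1*, with 73 of 30480 called) and 1 for CMP minus LSK (*Irf8*, with 253 of 34578 called). Over all genes, DESeq2 called 882 (edgeR 15) with both shRNAs in CMP, 1209 (272) with sh10, 1709 (853) with sh20, 1982 (886) for sh20 against sh10 and 97 (8) for CMP minus LSK.

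With single libraries left out, the number of the 9 genes called was 3 to 5 for CMP against LSK with sh10, 0 to 2 for sh10 against *Renilla* in CMP, 0 to 1 for sh20 against *Renilla*, 0 to 4 for sh20 against sh10 and 0 to 1 for CMP minus LSK. The number of all genes called moved too, in the same order 1291 to 2531 (2424 with all libraries), 9 to 325 (272), 430 to 3191 (853), 84 to 3484 (886) and 0 to 263 (8). Where both *Irf8* and *Id2* were lost with sh10, with sh10 A, B or C or *Renilla* A left out, 9 to 21 genes were called. Where an arm kept 1 library, it is assumed to vary like the other groups. Log2 changes that crossed 0 in this way were, for CMP against LSK with sh20, *Klf4* -2.36 to 0.38 and *Id2* -0.01 to 0.29. For both shRNAs in CMP they were *Spi1* -0.23 to 0.05, *Cebpa* -0.37 to 0.09, *Cebpb* -0.25 to 0.16, *Gfi1* -0.20 to 0.26 and *Runx3* -0.20 to 0.01. For sh10 in CMP they were *Spi1* -0.12 to 0.16 and *Gfi1* -0.04 to 0.39, for sh20 in CMP *Gfi1* -1.94 to 0.36 and *Runx3* -0.18 to 0.01, and for sh20 against sh10 in CMP *Gfi1* -2.16 to 0.15 and *Runx3* -0.07 to 0.10. For both shRNAs in LSK they were *Spi1* -0.11 to 0.02, *Cebpe* -0.25 to 0.37, *Irf8* -0.07 to 0.30 and *Runx3* -0.21 to 0.01. For sh10 in LSK they were *Spi1* -0.10 to 0.13, *Cebpa* -0.22 to 0.17, *Cebpb* -0.11 to 0.27, *Cebpe* -0.47 to 0.41, *Irf8* -0.03 to 0.57 and *Id2* -0.40 to 0.15. For sh20 in LSK they were *Cebpe* -0.44 to 0.33 and *Irf8* -0.36 to 0.19, and for sh20 against sh10 in LSK *Cebpe* -0.55 to 0.48. For CMP minus LSK they were *Spi1* -0.30 to 0.03, *Cebpa* -0.39 to 0.10, *Cebpe* -0.06 to 1.08, *Klf4* -0.12 to 2.11 and *Runx3* -0.07 to 0.13.

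With the replicate block, uncalled signs turned for *Klf4* in CMP against LSK with sh20 (0.60), for *Spi1* (0.05) and *Cebpa* (0.09) with both shRNAs in CMP, for *Spi1* with sh10 in CMP (0.16), for *Id2* with sh20 in CMP (0.03), for *Runx3* in sh20 against sh10 in CMP (-0.04) and for *Cebpa* with sh10 in LSK (0.18). With depth as a covariate they turned for *Spi1* (0.09) and *Cebpa* (1.61) with both shRNAs in CMP, for *Klf4* with sh10 in CMP (-2.73), for *Cebpa* (0.43), *Gfi1* (1.55), *Irf8* (-0.08) and *Id2* (1.1) with sh20 in CMP, for *Gfi1* (0.16) and *Runx3* (-0.34) in sh20 against sh10 in CMP, for *Spi1* with both shRNAs in LSK (0.11), for *Spi1* (0.02) and *Irf8* (0.23) with sh20 in LSK and for *Klf4* in CMP minus LSK (-0.41). With separate groups *Cebpb* with both shRNAs in CMP was 0.01. For CMP minus LSK, splits added after the data were seen gave *Cebpa* 0.25 with sh10 alone, and *Cebpb* 0.10 and *Klf4* -0.98 with sh20 alone. Depth limits *Klf4* (0 to 17 counts) and *Cebpe* in CMP (1 to 6 counts).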
